A study of Homo sapiens with 8 samples.

Results

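The genes described here are 50 components of the WNT signalling pathway, taken by name from a list of ligands, receptors, antagonists and targets and read out in every library. The RNA of each library had been quantified per transcript, and the transcripts of a gene were summed, which gave values for all 50 of 50 listed genes among 58217 genes with a matched transcript. After a filter on low counts, 44 of the 50 were tested among 18201 genes. The 6 that stayed under the filter were WNT3A, WNT6, WNT8B, WIF1, RSPO2 and NOTUM, which had 0, 1, 15, 17, 32 and 40 estimated counts over all 8 libraries. The cells were oligodendrocyte progenitor cells (OPCs), the dividing precursors of the myelin-forming oligodendrocyte, derived from the established H9 line of human embryonic stem cells. Every culture had passed through the same neural induction, grew in the same OPC medium and carried no forced SOX10, the transcription factor used elsewhere in the study to drive maturation. The groups differed in the substrate on which the OPCs had been kept for 2 days: Matrigel, the basement membrane extract that served as control (2 libraries, replicates 2 and 3), VN, the study's vitronectin substrate (3 libraries), and VNP2, a designed peptide derived from vitronectin (3 libraries). All libraries came from 1 cell line, and the labels do not say whether replicates were separate differentiations, so p-values measure the spread between these libraries, which may be technical.

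WNT ligands are secreted lipid-modified proteins that bind Frizzled receptors. Together with the co-receptors LRP5 and LRP6 they stop the destruction of beta-catenin (CTNNB1), which then acts with LEF1 and the TCF factors to switch on target genes, among them the feedback inhibitors AXIN2, NKD1, RNF43, ZNRF3 and NOTUM. Other ligands, such as WNT5A, act mostly through ROR2, RYK and the planar cell polarity proteins without beta-catenin. Secreted antagonists either bind the ligand (the SFRP proteins, FRZB, WIF1) or the co-receptors (DKK1, DKK2), while R-spondins and their LGR receptors raise the amount of Frizzled at the membrane. In the oligodendrocyte lineage, beta-catenin signalling is known to restrain the step from progenitor to myelinating cell.

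Libraries held 37997896 to 39429453 estimated counts, so depth differed little between substrates. VN replicate 1 stood apart from the other VN libraries: the median chi-square of its counts over genes was 2.35 and 2.75 against them, while all other replicate pairs lay between 0.712 and 1.19, with 0.455 for sampling noise alone. All replicate pairs lay above that value. Since estimated counts were scaled here only by library total, this cannot show whether replicates were technical repeats. Each library was counted once. Of the 8 OPC and ventral progenitor markers looked at, 7 were tested, and OLIG1, OLIG2, NKX2-2 and PDGFRA were expressed on every substrate. SOX10 was near 0, with at most 4.89 normalized counts in any library. Other cell types left marks as well: summed mesenchymal markers made up 523 to 636 TPM (a transcript's share of the library, corrected for its length) and summed neuronal markers 903 to 1091 TPM. In such bulk RNA, fewer cells of a type and less RNA per cell cannot be told apart.

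The levels of the WNT genes were first set side by side within each role, in TPM because only a value per length can be compared between genes. Among the ligands, WNT5B (33.1 to 43.0 TPM over the 8 libraries) and WNT5A (20.7 to 26.5 TPM), which act mostly without beta-catenin, together made up 67.2 to 74.2% of the summed ligand level. WNT4 followed with 12.6 to 17.3 TPM and WNT3, a ligand of the beta-catenin branch, with 5.24 to 7.77 TPM. WNT2B lay between 1.35 to 2.30 TPM, and the ranges of WNT7A, WNT11, WNT7B and WNT1 ran into each other, all under 1 TPM. WNT3A was listed at 0 in every library. The ranges of the first 5 ligands in that order did not overlap with those of their neighbours.

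FZD5 was the most abundant Frizzled receptor at 137 to 162 TPM, which was 32.5 to 37.5% of the summed Frizzled level. FZD8, FZD2 and FZD3 came next with overlapping ranges (63.3 to 80.5, 60.1 to 67.6 and 48.5 to 67.2 TPM), followed by FZD7 and FZD1, which also overlapped, then FZD6, FZD9 and FZD4. FZD10 was the lowest at 0.749 to 2.13 TPM. RYK, a receptor with an inactive kinase, led the other receptors at 74.9 to 87.3 TPM, above LRP5 (39.9 to 58.8 TPM) and LRP6 (28.6 to 34.4 TPM), and the receptor kinases ROR2 (3.08 to 5.67 TPM) and ROR1 (1.62 to 2.09 TPM) were far lower.

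Secreted antagonists were abundant. FRZB reached 104 to 150.1 TPM and SFRP2 71.2 to 93.9 TPM, while DKK3 and SFRP1 had overlapping ranges of 42.5 to 55.7 and 40.0 to 51.7 TPM. DKK2 spanned 5.09 to 16.1 TPM, SFRP4 0.208 to 2.85 TPM and DKK1 0.359 to 1.14 TPM. LGR4 made up 97.1 to 98.3% of the level of the R-spondins and their receptors, the rest of which lay at or under 1.22 TPM. Of the feedback inhibitors, AXIN2 (7.90 to 11.2 TPM) and ZNRF3 (8.75 to 9.69 TPM) were expressed at overlapping levels, above NKD1 (1.80 to 2.50 TPM). CTNNB1 was by far the most abundant gene of the list at 483 to 513 TPM, and TCF7L1 (62.1 to 75.0 TPM) exceeded LEF1 (15.5 to 21.4 TPM) and TCF7 (6.59 to 8.25 TPM). The plot of levels by role shows where neighbours in an order lay apart over the libraries and where their ranges overlapped.

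**Figure D1:**
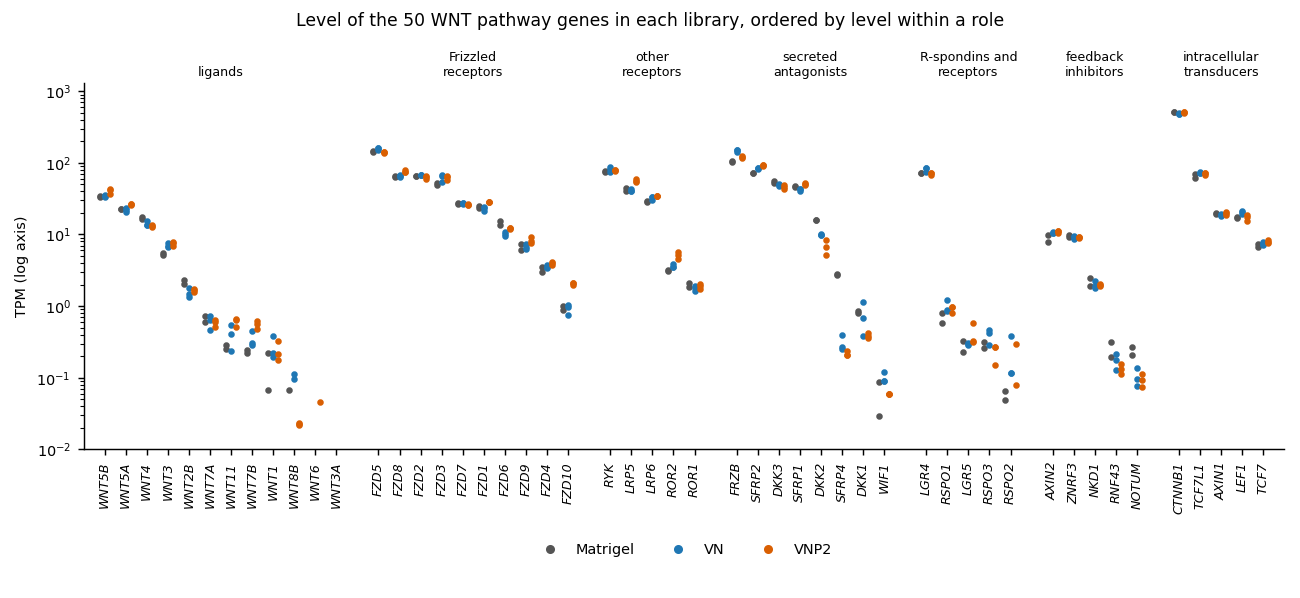
Level of each of the 50 WNT pathway genes in TPM on a log axis, with 1 point per library, coloured by substrate and ordered within each role by the mean over all 8 libraries. Values under 0.01 TPM are not drawn, WNT3A among them. WNT5B, FZD5, RYK, FRZB, LGR4, AXIN2 and CTNNB1 head their roles, and Matrigel lies visibly apart from the rest for SFRP4 and DKK2 and VNP2 for FZD10.

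Summed over a role, the ligands stood at 82.1 and 82.4 TPM on Matrigel, 80.1 to 81.8 TPM on VN and 87.3 to 92.5 TPM on VNP2. The co-receptors and other receptors stood at 149 and 154 TPM on Matrigel, 154 to 166 TPM on VN and 176 to 178 TPM on VNP2. On these 2 sums the VNP2 libraries lay above all libraries of the other substrates. Secreted antagonists summed to 295 and 301 TPM on Matrigel, 331 to 336 TPM on VN and 310 to 321 TPM on VNP2, so here VN was highest. Feedback inhibitors summed to 19.9 and 22.2 TPM on Matrigel, 21.7 to 22.6 TPM on VN and 21.9 to 22.5 TPM on VNP2, and the groups overlapped. TPM values were not scaled between libraries as the normalized counts below were. CTNNB1, for example, had means of 508 and 507 TPM on Matrigel and VNP2, beside 35539 and 33789 normalized counts. How much of the differences in these sums and in the marker sums below is scaling was not tested.

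Each substrate pair was then compared gene by gene with edgeR's quasi-likelihood test, and a gene was called when its Benjamini-Hochberg adjusted p over all 18201 tested genes was under 0.05. Between VN and Matrigel, 10 of the 44 tested WNT genes were called (22.7%, against 15.3% of all tested genes), 2 of them higher on VN (5.66% of all genes were higher) and 8 lower (9.6% of all genes were lower). Between VNP2 and Matrigel 13 were called (29.5%, against 16.6% of all genes), 8 higher and 5 lower on VNP2, where 7.44% of all genes were higher and 9.13% lower. Between VNP2 and VN 12 were called (27.3%, against 5.1% of all genes), 9 higher and 3 lower on VNP2, where 3.09% of all genes were higher and 2.01% lower. The 2 comparisons with Matrigel share its 2 libraries and are not independent of each other. In all, 21 of the 44 tested WNT genes were called in at least 1 comparison. The list was chosen with earlier results of these data known, so these shares are no measure of enrichment.

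Most of these differences were small. A change of at least 1.5-fold was found among the called WNT genes for 3 between VN and Matrigel (SFRP4, DKK2 and FZD6), 5 between VNP2 and Matrigel (SFRP4, DKK2, WNT7B, FZD10 and ROR2) and 1 between VNP2 and VN (FZD10), where 3.65%, 5.41% and 1.6% of all tested genes met both conditions. The median log2 fold change of the 44 genes was -0.05, 0.04 and 0.06 in these comparisons, beside 0.0044, 0.0024 and 0.00073 over all tested genes. Libraries of the compared groups did not overlap for 24, 31 and 23 of the 44, beside 44.4%, 48.1% and 23.6% of all tested genes. No test of the list as a whole was made. Without VN replicate 1, the library that stood apart, 14, 19 and 13 of the WNT genes were called, beside 3899, 3608 and 1996 of all genes. Fits without Matrigel replicate 2 or 3 leave a lone library in that group. Fewer genes were called against Matrigel there, both among the WNT genes and among all genes.

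**Figure D2:**
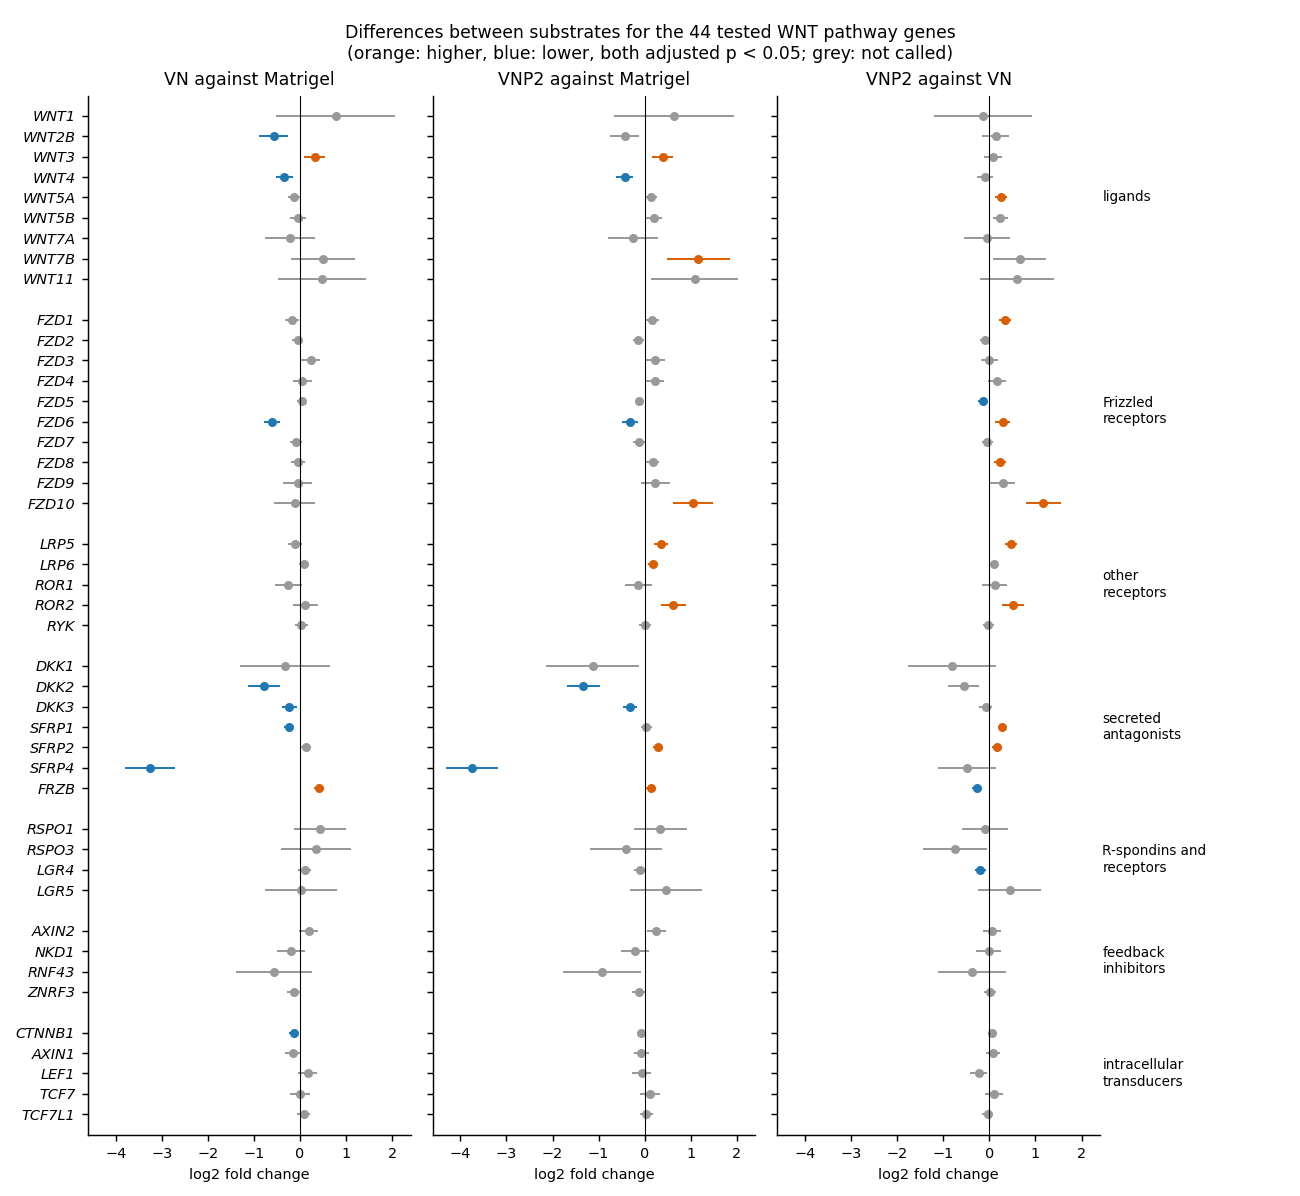
Log2 fold change with its 95% interval for the 44 tested WNT pathway genes, in 1 panel per comparison and grouped by role, with genes called higher in orange, lower in blue and not called in grey. SFRP4 lies far from the rest in both comparisons with Matrigel, at -3.26 and -3.74, and FZD10 is the largest difference between VNP2 and VN at 1.17.

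Of the 9 tested ligands, 3 were called in each comparison with Matrigel and 1 between VNP2 and VN. WNT4, a ligand with context-dependent signalling (chromosome 1, 22117305 to 22143969, minus strand, GRCh38), had normalized counts of 1406 and 1452 in the Matrigel libraries, 1238, 1052 and 1080.1 in the VN libraries, and 1013, 1057 and 1096 in the VNP2 libraries. Both Matrigel libraries were above all others, while VN and VNP2 overlapped. WNT4 fell on VN (log2 fold change -0.35, SE 0.07, edgeR adjusted p = 0.0104) and on VNP2 (log2 fold change -0.44, SE 0.07, edgeR adjusted p = 0.00231). The fall on VN did not pass without Matrigel replicate 2 or 3 (edgeR adjusted p = 0.0589 to 0.0883), whereas that on VNP2 was called under every alternative run.

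WNT3 went the other way, with 363 and 382 in the Matrigel libraries, 499, 438 and 451 in the VN libraries, and 499, 511 and 453 in the VNP2 libraries. The 2 Matrigel libraries were the lowest of the 8. It rose on VN (log2 fold change 0.31, SE 0.09, edgeR adjusted p = 0.0402) and on VNP2 (log2 fold change 0.39, SE 0.09, edgeR adjusted p = 0.0139). These calls were fragile, since the rise on VN was lost without Matrigel replicate 2 or 3, VN replicate 1 or 3 or VNP2 replicate 1 or 2 (edgeR adjusted p = 0.0515 to 0.204), with DESeq2 (adjusted p = 0.0521), with no filter on low counts (adjusted p = 0.0502), with only the libraries of the pair (adjusted p = 0.0696) and with the replicate number as a block (adjusted p = 0.0730), and the rise on VNP2 was lost without Matrigel replicate 2 or 3 (edgeR adjusted p = 0.0597 to 0.103).

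WNT2B, another ligand of the beta-catenin branch, had 259 and 292 in the Matrigel libraries, 179, 162 and 216 in the VN libraries, and 212, 193 and 207 in the VNP2 libraries, with both Matrigel libraries above all others. It fell on VN (log2 fold change -0.57, SE 0.13, edgeR adjusted p = 0.0166), while on VNP2 its log2 fold change of -0.43 came with an adjusted p of 0.0508. The fall on VNP2 was called by edgeR with only the libraries of the pair (adjusted p = 0.0278), with the replicate number as a block (0.0442) and with no correction for transcript length (0.0434). It was also called without VN replicate 2 (0.0419) or 3 (0.0288). WNT2B shares 2661 exonic bases with ST7L on the opposite strand, and ST7L itself was not called on VN (log2 fold change 0.04, edgeR adjusted p = 0.863). The WNT2B call on VN was lost without Matrigel replicate 2 or 3 or VN replicate 2 (edgeR adjusted p = 0.0527 to 0.131) and when the correction for transcript length was left out (adjusted p = 0.0558).

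WNT7B was scarce, with 18.8 and 20.8 in the Matrigel libraries, 36.8, 22.7 and 24.3 in the VN libraries, and 50.4, 38.2 and 44.7 in the VNP2 libraries. All VNP2 libraries were above all others, and WNT7B rose 2.24-fold on VNP2 over Matrigel (log2 fold change 1.16, SE 0.30, edgeR adjusted p = 0.0228). With so few counts the interval was wide (0.50 to 1.82 on the log2 scale), and the call was lost without Matrigel replicate 2 or 3 or VNP2 replicate 1 or 3 (edgeR adjusted p = 0.0593 to 0.133) and with DESeq2 (adjusted p = 0.0511). Between VNP2 and VN its log2 fold change was 0.66 (edgeR adjusted p = 0.175).

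Of the 2 dominant ligands, WNT5A (chromosome 3, 55465715 to 55490539, minus strand) had 2203 and 2148 in the Matrigel libraries, 1903, 2104 and 1989 in the VN libraries, and 2346, 2399.7 and 2409.9 in the VNP2 libraries. VNP2 libraries were the highest and VN libraries the lowest, with Matrigel in between. WNT5A rose 1.19-fold on VNP2 over VN (log2 fold change 0.25, SE 0.05, edgeR adjusted p = 0.00915) in every alternative run, and neither difference from Matrigel passed (log2 fold change -0.12 with edgeR adjusted p = 0.137 on VN, and 0.13 with adjusted p = 0.110 on VNP2). Its close relative WNT5B lay at 1324 and 1274 in the Matrigel libraries, 1230.2, 1267 and 1273 in the VN libraries, and 1591, 1347 and 1517 in the VNP2 libraries normalized counts, again with VNP2 above VN, and missed the threshold (log2 fold change 0.24, edgeR adjusted p = 0.0544). WNT5B was called higher on VNP2 than on VN with DESeq2 (adjusted p = 0.0244), without the length correction (adjusted p = 0.0481), with no filter on low counts (adjusted p = 0.0209) and without VNP2 replicate 2 (adjusted p = 0.0152). WNT1, WNT7A and WNT11 were tested and called in no comparison, at 3.04 to 16.3, 39 to 65.6 and 8.11 to 23.2 normalized counts. At this depth their intervals were wide, that of WNT1 on VN running from -0.50 to 2.05 on the log2 scale.

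Among the Frizzled receptors, FZD10 held the largest difference between VNP2 and VN (chromosome 12, 130162459 to 130165740, plus strand, GRCh38). Its normalized counts were 66.0 and 58.0 in the Matrigel libraries, 65.5, 45.9 and 59.7 in the VN libraries, and 122, 133 and 130.3 in the VNP2 libraries. The 3 VNP2 libraries were above all 5 others, and Matrigel and VN overlapped. FZD10 rose 2.07-fold on VNP2 over Matrigel (log2 fold change 1.05, SE 0.18, edgeR adjusted p = 0.00294) and 2.25-fold over VN (log2 fold change 1.17, SE 0.16, edgeR adjusted p = 0.00211), and both calls held under every alternative run. Between VN and Matrigel the log2 fold change was -0.12 with a 95% interval of -0.54 to 0.30. It remained the least abundant Frizzled receptor on all substrates.

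FZD6, a receptor linked to planar cell polarity, had 892 and 978 in the Matrigel libraries, 628, 575 and 643 in the VN libraries, and 757, 745 and 754 in the VNP2 libraries normalized counts. The substrates did not overlap and followed the order Matrigel, VNP2, VN. FZD6 fell on VN (log2 fold change -0.60, SE 0.07, edgeR adjusted p = 0.000261), a call kept under every alternative run. It fell less on VNP2 (log2 fold change -0.31, SE 0.07, edgeR adjusted p = 0.0110), where the call was lost without Matrigel replicate 3 (edgeR adjusted p = 0.127). Directly compared, FZD6 was 1.22-fold higher on VNP2 than on VN (log2 fold change 0.29, SE 0.06, edgeR adjusted p = 0.0263), and this was lost without VN replicate 2 or VNP2 replicate 1, 2 or 3 (edgeR adjusted p = 0.0718 to 0.0912) and when the length correction was left out (adjusted p = 0.0594).

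FZD1 was expressed at 2976 and 2779.9 in the Matrigel libraries, 2639, 2646 and 2369 in the VN libraries, and 3249, 3201 and 3223 in the VNP2 libraries normalized counts. VN libraries were lowest and VNP2 libraries highest, without overlap of the 3 substrates. FZD1 rose 1.26-fold on VNP2 over VN (log2 fold change 0.34, SE 0.05, edgeR adjusted p = 0.00299), and the call held under every alternative run. Against Matrigel it was lower on VN by a log2 fold change of -0.17 (edgeR adjusted p = 0.0604) and higher on VNP2 by 0.16 (adjusted p = 0.0716), neither of which passed with edgeR, while both did with DESeq2 (adjusted p = 0.0440 and 0.0464).

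FZD8 had 3752 and 3754 in the Matrigel libraries, 3834, 3454 and 3609 in the VN libraries, and 4488, 4083 and 4132 in the VNP2 libraries normalized counts and rose on VNP2 over VN (log2 fold change 0.22, SE 0.05, edgeR adjusted p = 0.0271). Matrigel and VN overlapped and VNP2 was above both. On VNP2 over Matrigel the log2 fold change of FZD8 was 0.17 and missed the threshold (edgeR adjusted p = 0.0556). Several alternatives called it, among them DESeq2 (adjusted p = 0.0243) and edgeR with no filter on low counts (adjusted p = 0.0322). FZD5, the most abundant receptor of the family, had 20023 and 19173 in the Matrigel libraries, 19471, 20389 and 20262 in the VN libraries, and 17633, 18425 and 18306 in the VNP2 libraries and fell slightly on VNP2 relative to VN (log2 fold change -0.15, SE 0.03, edgeR adjusted p = 0.0291), with all VNP2 libraries under all others. The 2 calls between VNP2 and VN were not stable. That of FZD8 was lost without VN replicate 2 or 3 or VNP2 replicate 1 or 3 (edgeR adjusted p = 0.0607 to 0.105). That of FZD5 was lost without VN replicate 2 or 3 or VNP2 replicate 1, 2 or 3 (edgeR adjusted p = 0.0622 to 0.122). FZD2, FZD3, FZD4, FZD7 and FZD9 were not called in any comparison, and their log2 fold changes ran from -0.14 (FZD2, VNP2 against Matrigel) to 0.29 (FZD9, VNP2 against VN). FZD3 came near the threshold on VN and VNP2, at 0.23 on VN and 0.23 on VNP2 (edgeR adjusted p = 0.0957 and 0.0929), and passed with DESeq2 (adjusted p = 0.0218 and 0.0229). In DESeq2, 3 and 7 of the 10 Frizzled genes were called against Matrigel on VN and VNP2, where edgeR called 1 and 2. Over all 18201 tested genes DESeq2 called 2874 and 2916, where edgeR called 2778 and 3016.

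Of the co-receptors and other receptors, LRP5, LRP6 and ROR2 rose on VNP2. LRP5, which with LRP6 takes the signal to beta-catenin, lies on chromosome 11, 68312609 to 68449275, plus strand (GRCh38) and had 5573 and 5046 in the Matrigel libraries, 5235, 4847 and 4703 in the VN libraries, and 7099, 6605 and 6746 in the VNP2 libraries normalized counts. All 3 VNP2 libraries exceeded the 5 others, while Matrigel and VN overlapped. LRP5 rose 1.28-fold on VNP2 over Matrigel (log2 fold change 0.36, SE 0.06, edgeR adjusted p = 0.00179) and 1.38-fold over VN (log2 fold change 0.47, SE 0.05, edgeR adjusted p = 0.000570) in every alternative run.

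LRP6 was closer between substrates, at 5774 and 5597 in the Matrigel libraries, 5806, 6159 and 6132 in the VN libraries, and 6475, 6392 and 6434 in the VNP2 libraries. The substrates did not overlap, in the order Matrigel, VN, VNP2. LRP6 rose 1.13-fold on VNP2 over Matrigel (log2 fold change 0.18, SE 0.04, edgeR adjusted p = 0.00960), which was lost without Matrigel replicate 3 (edgeR adjusted p = 0.103).

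ROR2, the receptor kinase through which WNT5A acts, lies on chromosome 9, 91563091 to 91950162, minus strand (GRCh38). It had 304 and 288 in the Matrigel libraries, 313, 345 and 304 in the VN libraries, and 463, 401 and 505 in the VNP2 libraries normalized counts, with every VNP2 library above every other library. ROR2 rose 1.54-fold on VNP2 over Matrigel (log2 fold change 0.62, SE 0.11, edgeR adjusted p = 0.00328), a call kept under every alternative run, and 1.42-fold over VN (log2 fold change 0.51, SE 0.10, edgeR adjusted p = 0.0128), which was lost without VN replicate 3 or VNP2 replicate 1 or 3 (edgeR adjusted p = 0.0541 to 0.0575). Its relative ROR1 stayed at 142 to 195 normalized counts and RYK at 3566 to 4015, and neither was called in any comparison. Between VN and Matrigel none of the 5 genes of this role was called by edgeR, DESeq2 or limma. Of the 5, 1 had an unadjusted p under 0.05, beside 5462 of all 18201 tested genes.

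Secreted antagonists held the largest differences of the list, and 5 of the 7 tested were called in each comparison with Matrigel. SFRP4, which binds WNT ligands and is known from mesenchymal tissues (chromosome 7, 37905932 to 38025695, minus strand, GRCh38), had 136 and 141 in the Matrigel libraries, 11.9, 12.6 and 18.6 in the VN libraries, and 9.87, 9.87 and 11.2 in the VNP2 libraries normalized counts. Both Matrigel libraries were far above the 6 others, and VN and VNP2 did not overlap either. SFRP4 fell on VN to 0.105 of the Matrigel level (log2 fold change -3.26, SE 0.23, edgeR adjusted p = 8.94e-06) and on VNP2 to 0.0746 (log2 fold change -3.74, SE 0.25, edgeR adjusted p = 3.55e-06). Between VNP2 and VN its log2 fold change was -0.49 (95% interval -1.10 to 0.12, edgeR adjusted p = 0.411). Across the alternatives run, the log2 fold change lay between -3.48 and -3.0 on VN and between -3.79 and -3.63 on VNP2, and both calls were kept.

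DKK2, an antagonist that binds LRP5 and LRP6 (chromosome 4, 106921802 to 107283806, minus strand, GRCh38), had 827 and 823 in the Matrigel libraries, 491, 473 and 484 in the VN libraries, and 413, 249.9 and 328 in the VNP2 libraries normalized counts. The 3 substrates formed separate ranges in the order Matrigel, VN, VNP2, and VNP2 libraries scattered the most. DKK2 fell on VN to 0.585 of the Matrigel level (log2 fold change -0.77, SE 0.15, edgeR adjusted p = 0.00597) and on VNP2 to 0.398 (log2 fold change -1.33, SE 0.15, edgeR adjusted p = 0.000157), and both calls were kept in every alternative run. Between VNP2 and VN the log2 fold change was -0.55 and just missed the threshold (edgeR adjusted p = 0.0512), while DESeq2 and limma called it (adjusted p = 0.00473 and 0.0357). Without VNP2 replicate 1, the highest of the 3, that difference was -0.75 (edgeR adjusted p = 0.0069).

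DKK3, a divergent member of the Dickkopf family, was at 3252 and 3029 in the Matrigel libraries, 2638, 2661 and 2735 in the VN libraries, and 2712, 2363 and 2518 in the VNP2 libraries normalized counts. Matrigel was highest and VN and VNP2 overlapped. DKK3 fell on VN (log2 fold change -0.23, SE 0.06, edgeR adjusted p = 0.0250) and on VNP2 (log2 fold change -0.31, SE 0.06, edgeR adjusted p = 0.00458). The first was lost without Matrigel replicate 2 or 3 or VN replicate 2 (edgeR adjusted p = 0.0571 to 0.218) and the second without Matrigel replicate 2 (edgeR adjusted p = 0.0707).

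The other SFRP-type antagonists differed by far less than SFRP4. SFRP1 had 4626 and 4464 in the Matrigel libraries, 3708, 3861 and 3925 in the VN libraries, and 4685, 4756 and 4549 in the VNP2 libraries normalized counts, and VN libraries were below all others while Matrigel and VNP2 overlapped. It fell on VN against Matrigel (log2 fold change -0.25, SE 0.04, edgeR adjusted p = 0.00287) and rose on VNP2 over VN (log2 fold change 0.28, SE 0.04, edgeR adjusted p = 0.00141), both in every alternative run. Between VNP2 and Matrigel the log2 fold change was 0.04 with a 95% interval of -0.05 to 0.13.

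SFRP2 had 2745 and 2646 in the Matrigel libraries, 2996, 2946 and 2862 in the VN libraries, and 3335, 3195 and 3330.3 in the VNP2 libraries normalized counts, with the substrates apart in the order Matrigel, VN, VNP2. It rose 1.22-fold on VNP2 over Matrigel (log2 fold change 0.29, SE 0.04, edgeR adjusted p = 0.00111), kept in every alternative run, and 1.12-fold over VN (log2 fold change 0.16, SE 0.04, edgeR adjusted p = 0.0339). The second call was lost in 7 of 8 fits that left out a library, namely without Matrigel replicate 2 or 3, VN replicate 2 or 3 or VNP2 replicate 1, 2 or 3 (edgeR adjusted p = 0.0545 to 0.132).

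FRZB, the most abundant antagonist (chromosome 2, 182833275 to 182867162, minus strand, GRCh38), showed 5150.0 and 5175 in the Matrigel libraries, 7093, 6874 and 6597 in the VN libraries, and 5532, 5665 and 5821 in the VNP2 libraries normalized counts. Here the order was Matrigel, VNP2, VN, again without overlap. FRZB rose 1.33-fold on VN over Matrigel (log2 fold change 0.41, SE 0.04, edgeR adjusted p = 0.000108) and was lower on VNP2 than on VN (log2 fold change -0.27, SE 0.04, edgeR adjusted p = 0.00175), both in every alternative run. Its rise on VNP2 over Matrigel was slight (log2 fold change 0.14, SE 0.04, edgeR adjusted p = 0.0476) and was lost without Matrigel replicate 2 or 3, VN replicate 2 or VNP2 replicate 1, 2 or 3 (edgeR adjusted p = 0.0593 to 0.192), with no filter on low counts (adjusted p = 0.0614), with the replicate number as a block (adjusted p = 0.0782) and with limma (adjusted p = 0.0546). DKK1 stayed at 8.51 to 27.3 normalized counts and was not called. WIF1 was below the filter.

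**Figure D3:**
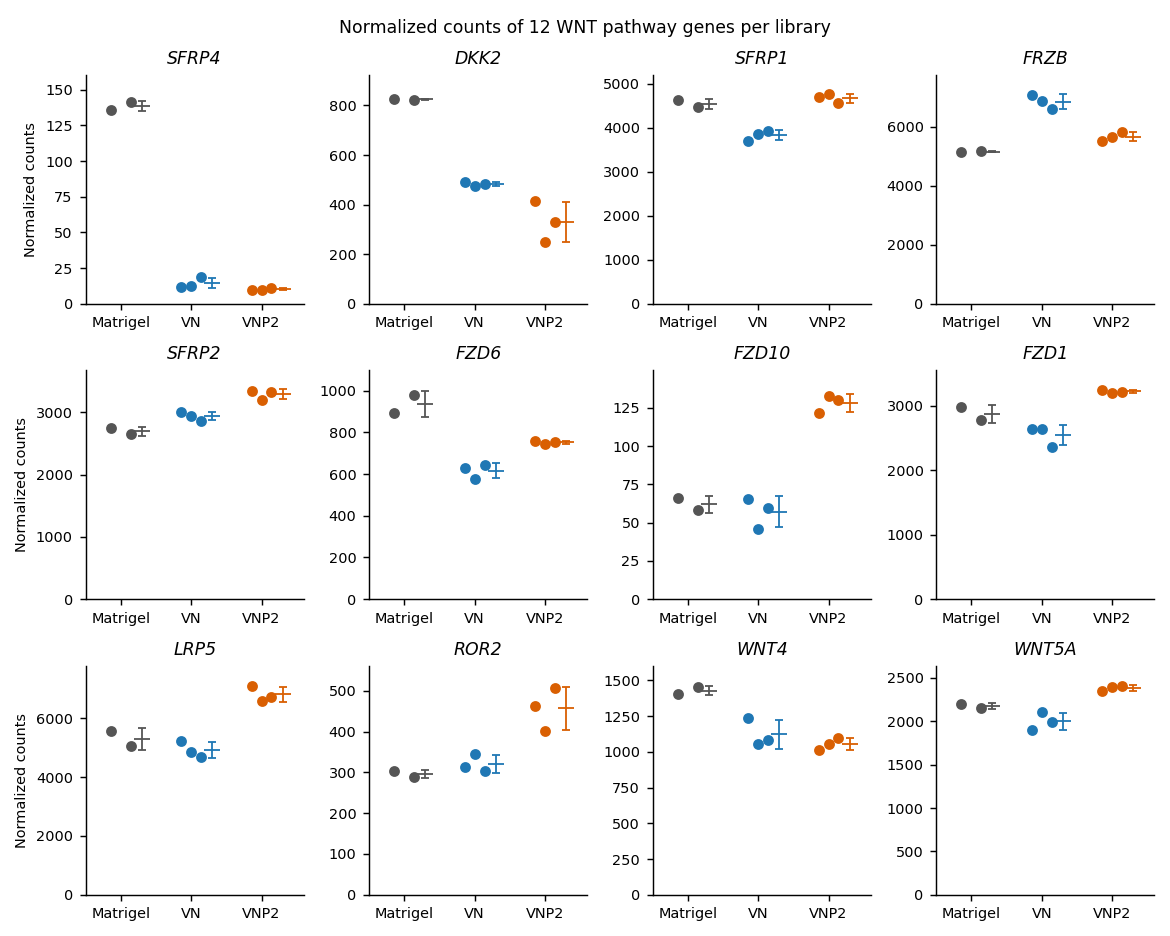
Normalized counts of 12 WNT pathway genes in each library (points) by substrate, with the group mean and SD beside them (horizontal mark and bar, n = 2 for Matrigel and n = 3 for VN and VNP2), on axes that start at 0. SFRP4 and DKK2 are highest on Matrigel, FZD10, LRP5 and ROR2 are highest on VNP2, and SFRP1, FZD6 and FZD1 are lowest on VN where FRZB is highest.

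Where these genes start was looked at in the sequence as well, since beta-catenin acts through TCF and LEF factors, whose best known motif is CTTTG followed by 2 letters that are each A or T. This motif of 7 letters was searched on both strands of the 250 bases before each start in RefSeq, and 33 of the 50 genes had an entry. AXIN2, NKD1, ZNRF3 and NOTUM had none, so RNF43 was the only feedback inhibitor searched, and the search says little on target genes of the pathway. It was found in 4199 of 35116 promoters of all genes (12%) and in 1 of the 33 (3.0%), that of DKK1. The listed promoters were richer in G and C than the rest, with medians of 70.8% and 58.0%. Printed here, 5' to 3' in lower case with the motif in capitals, are SFRP4 as the largest called fall, ROR2 as the largest called rise among genes with an entry, and DKK1 as the match.
SFRP4 (GRCh38.p14, chr7:37916818-37917067, minus strand): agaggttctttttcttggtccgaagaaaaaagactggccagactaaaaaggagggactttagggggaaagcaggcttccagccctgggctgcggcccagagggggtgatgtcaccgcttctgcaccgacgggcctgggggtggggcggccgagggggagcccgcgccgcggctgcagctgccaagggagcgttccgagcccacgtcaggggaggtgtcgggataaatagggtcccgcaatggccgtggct
ROR2 (GRCh38.p14, chr9:91950229-91950478, minus strand): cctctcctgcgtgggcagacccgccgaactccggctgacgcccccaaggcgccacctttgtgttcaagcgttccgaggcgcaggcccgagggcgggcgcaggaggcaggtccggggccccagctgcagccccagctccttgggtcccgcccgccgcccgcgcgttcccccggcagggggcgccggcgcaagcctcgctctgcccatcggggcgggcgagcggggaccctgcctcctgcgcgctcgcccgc
DKK1 (GRCh38.p14, chr10:52314031-52314280, plus strand): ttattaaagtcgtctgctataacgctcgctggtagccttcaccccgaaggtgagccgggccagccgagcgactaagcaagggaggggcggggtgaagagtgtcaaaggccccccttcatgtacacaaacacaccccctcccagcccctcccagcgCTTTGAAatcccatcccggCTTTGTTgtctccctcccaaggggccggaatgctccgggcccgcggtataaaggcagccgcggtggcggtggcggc
DKK1 holds 2 matches, which begin 95 and 76 bases before its start, both on the gene's own strand. The windows of SFRP4 and ROR2 hold no match, which says only that these letters are not in these bases.

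Of the R-spondins and their receptors, only LGR4 was called, in 1 comparison. LGR4, the receptor that makes up nearly all of this role, had 6022 and 5909.8 in the Matrigel libraries, 5939, 6562 and 6631 in the VN libraries, and 5418, 5671 and 5647 in the VNP2 libraries normalized counts. VN replicates 2 and 3 were the highest libraries and the VNP2 libraries the lowest. LGR4 fell on VNP2 relative to VN (log2 fold change -0.19, SE 0.04, edgeR adjusted p = 0.0330), and this call was lost without Matrigel replicate 2 or 3, VN replicate 2 or 3 or VNP2 replicate 1, 2 or 3 (edgeR adjusted p = 0.0599 to 0.130), when the length correction was left out (adjusted p = 0.104) and with only the libraries of the pair (adjusted p = 0.0539). RSPO1, RSPO3 and LGR5 were at 38.8 to 80.1, 13.1 to 40.7 and 18.2 to 44 normalized counts and were not called. In both comparisons with Matrigel none of the 4 tested genes was called by edgeR, DESeq2 or limma. Nor had any an unadjusted p under 0.05, as 5462 and 5270 of all 18201 tested genes had on VN and VNP2.

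Feedback inhibitors, whose transcription follows beta-catenin activity, were called in none of the 3 comparisons by edgeR, DESeq2 or limma. AXIN2, the most widely used target gene of the pathway, had 651 and 798 in the Matrigel libraries, 828, 837 and 811 in the VN libraries, and 878, 823 and 879 in the VNP2 libraries normalized counts. Matrigel replicate 2 was the lowest library, and the 6 VN and VNP2 libraries lay above both Matrigel libraries by a margin smaller than the gap between those 2. The log2 fold change of AXIN2 was 0.19 on VN (95% interval 0.00 to 0.37, edgeR adjusted p = 0.158), 0.25 on VNP2 (0.06 to 0.43, adjusted p = 0.0712) and 0.06 between VNP2 and VN (-0.11 to 0.22, adjusted p = 0.719). Without Matrigel replicate 3 both differences from Matrigel were called, at 0.34 and 0.40 (adjusted p = 0.0392 and 0.015).

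NKD1, which dampens the signal at Dishevelled, lay at 689 and 909 in the Matrigel libraries, 798, 658 and 615 in the VN libraries, and 659, 681 and 708 in the VNP2 libraries normalized counts. The 2 Matrigel libraries differed from each other more than any pair on the other substrates, and the 95% intervals were -0.49 to 0.08 on VN and -0.50 to 0.06 on VNP2. Its log2 fold changes of -0.21 and -0.22 became 0.09 and 0.16 when the length correction was left out, so no direction is given. ZNRF3, a ubiquitin ligase that removes Frizzled from the membrane, was tighter, at 1406 and 1348 in the Matrigel libraries, 1215, 1286 and 1251 in the VN libraries, and 1266, 1282 and 1231 in the VNP2 libraries. Both Matrigel libraries were above all others, and the log2 fold changes were -0.14 (95% interval -0.25 to -0.02) and -0.13 (-0.24 to -0.01), with edgeR adjusted p = 0.103 and 0.129. RNF43, the related ligase, had 11.1 to 32.4 normalized counts. At an unadjusted p under 0.05, 2 of these 4 genes would pass on VN, 3 on VNP2 and 0 between VNP2 and VN. Of all 18201 tested genes, 5462, 5270 and 3600 would pass.

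Of the intracellular transducers, CTNNB1 had 35521 and 35557 in the Matrigel libraries, 33723, 31922 and 31534 in the VN libraries, and 34291, 33346 and 33731 in the VNP2 libraries normalized counts. Both Matrigel libraries were above all others, and VN and VNP2 overlapped. CTNNB1 fell slightly on VN, to 0.911 of the Matrigel level (log2 fold change -0.13, SE 0.03, edgeR adjusted p = 0.0260), which was lost without Matrigel replicate 2 or 3, VN replicate 2 or 3 or VNP2 replicate 3 (edgeR adjusted p = 0.0525 to 0.145) and with only the libraries of the pair (adjusted p = 0.0701). Beta-catenin is regulated mainly as a protein, which was not measured here. AXIN1, a scaffold of the destruction complex, and the factors LEF1, TCF7 and TCF7L1 were not called in any comparison. LEF1 had 717 and 689 in the Matrigel libraries, 754, 825 and 791 in the VN libraries, and 731, 683 and 606 in the VNP2 libraries normalized counts, with VN libraries above all others, and came nearest between VNP2 and VN (log2 fold change -0.23, edgeR adjusted p = 0.115). For TCF7L1 the 95% intervals were -0.04 to 0.19 on VN and -0.07 to 0.15 on VNP2.

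Further genes of the pathway were taken from a second list of 53, of which 45 were tested. Between VN and Matrigel 9 were called, 4 higher and 5 lower, between VNP2 and Matrigel 16, 8 in each direction, and between VNP2 and VN 7, 4 higher and 3 lower. That was 20%, 35.6% and 15.6% of the 45, beside the 15.3%, 16.6% and 5.1% of all genes. The second list was also chosen with earlier results of these data known, so its shares are no measure of enrichment. Under the alternatives only the number of calls in this list was followed, so the stability of its single calls was not tested. GPC4, a glypican that binds WNT ligands, had 26268 and 26413 in the Matrigel libraries, 14294, 14141 and 13588 in the VN libraries, and 11987, 12499 and 11697 in the VNP2 libraries normalized counts, with Matrigel far above the rest. It fell on VN (log2 fold change -0.91, SE 0.04, edgeR adjusted p = 2.04e-07), on VNP2 (log2 fold change -1.13, SE 0.04, edgeR adjusted p = 4.38e-08) and, by less, on VNP2 relative to VN (log2 fold change -0.22, SE 0.03, edgeR adjusted p = 0.00455).

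PRICKLE1, a core protein of planar cell polarity, had 1188 and 1692 in the Matrigel libraries, 677, 787 and 699.7 in the VN libraries, and 657, 709.7 and 658 in the VNP2 libraries normalized counts and fell on both VN (log2 fold change -0.99, SE 0.13, edgeR adjusted p = 0.000523) and VNP2 (log2 fold change -1.09, SE 0.13, edgeR adjusted p = 0.000202). The 2 Matrigel libraries were highest but far from each other. PRICKLE2, its paralog, had 626 and 721 in the Matrigel libraries, 521, 509.9 and 557 in the VN libraries, and 309, 394 and 305 in the VNP2 libraries, with VNP2 lowest, and fell on VNP2 relative to Matrigel (log2 fold change -1.01, SE 0.11, edgeR adjusted p = 0.000167) and to VN (log2 fold change -0.66, SE 0.11, edgeR adjusted p = 0.00511). CELSR1, an adhesion receptor of the same branch, was also lower on VNP2 than on VN (log2 fold change -0.38, SE 0.04, edgeR adjusted p = 0.000302), whereas CELSR3 rose on VN (log2 fold change 0.41, SE 0.09, edgeR adjusted p = 0.0109) and on VNP2 (log2 fold change 0.51, SE 0.09, edgeR adjusted p = 0.00271). WLS, which carries WNT ligands to the membrane, had 5652 and 5578 in the Matrigel libraries, 4415, 4247 and 4229 in the VN libraries, and 4908, 5017 and 4765 in the VNP2 libraries normalized counts and fell on VN (log2 fold change -0.39, SE 0.04, edgeR adjusted p = 9.69e-05), and VN libraries were below all others.

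Inhibitors in this second list were called in both directions on VNP2. APCDD1, a membrane-bound inhibitor of WNT signalling and itself a beta-catenin target, had 1349 and 1909 in the Matrigel libraries, 1796, 1689.7 and 1609 in the VN libraries, and 2732, 2463 and 2861 in the VNP2 libraries normalized counts. The VNP2 libraries were above all 5 others, while Matrigel replicate 2 was the lowest. APCDD1 rose on VNP2 over Matrigel (log2 fold change 0.73, SE 0.12, edgeR adjusted p = 0.00234) and over VN (log2 fold change 0.66, SE 0.11, edgeR adjusted p = 0.00537). TRABD2B, a protease that inactivates WNT ligands, had 229 and 219 in the Matrigel libraries, 161, 222 and 153 in the VN libraries, and 361, 385 and 315 in the VNP2 libraries, also with VNP2 on top, and rose over Matrigel (log2 fold change 0.65, SE 0.16, edgeR adjusted p = 0.0168) and over VN (log2 fold change 0.99, SE 0.14, edgeR adjusted p = 0.00247). Against Matrigel, SOSTDC1, a secreted inhibitor of LRP5 and LRP6, fell on VNP2 (log2 fold change -0.77, SE 0.17, edgeR adjusted p = 0.0110), as did KREMEN1, a receptor for Dickkopf proteins (log2 fold change -0.26, SE 0.05, edgeR adjusted p = 0.00834). TNFRSF19, a receptor known as a beta-catenin target, rose on VNP2 over VN (log2 fold change 0.22, SE 0.04, edgeR adjusted p = 0.00537). On VN, the rises beside CELSR3 were led by the co-repressor TLE2 (log2 fold change 0.35, SE 0.07, edgeR adjusted p = 0.00956) and PYGO1, a partner of beta-catenin (log2 fold change 0.28, SE 0.08, edgeR adjusted p = 0.0302).

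**Figure D4:**
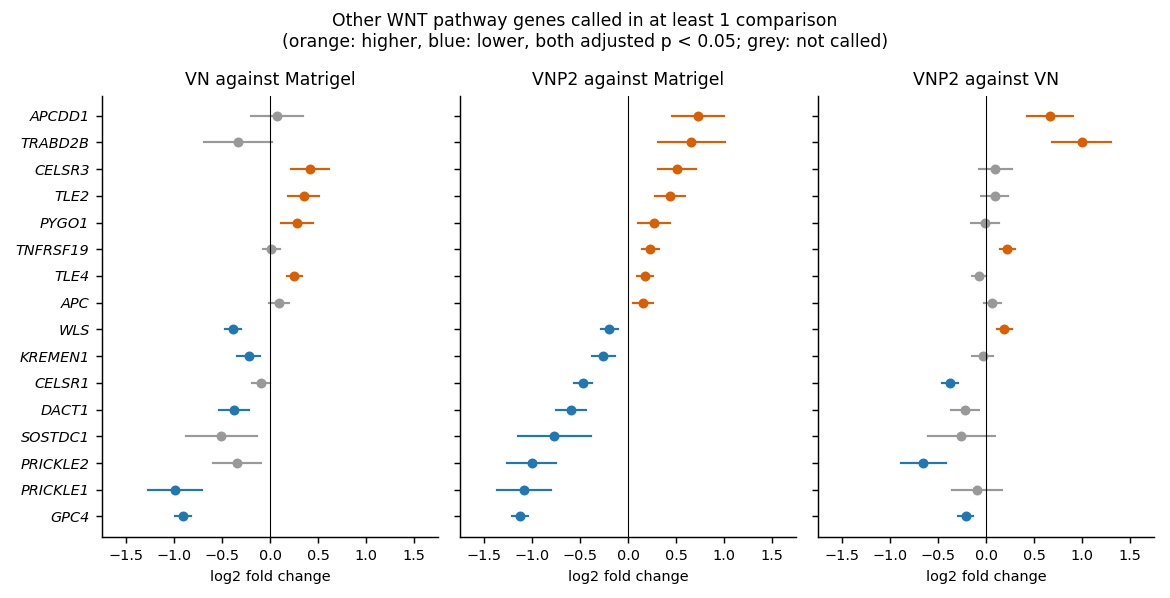
Log2 fold change with its 95% interval for the 16 other WNT pathway genes called in at least 1 comparison, in 1 panel per comparison, with genes called higher in orange, lower in blue and not called in grey. GPC4 and PRICKLE1 are lower on VN and on VNP2 than on Matrigel, and APCDD1 and TRABD2B are called higher on VNP2 against both other substrates but not on VN against Matrigel.

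Markers of other cell types moved with the substrates too, and their part in the results above was not tested. Mesenchymal markers were split: against Matrigel, 6 of 10 were called on VN (3 up, 3 down) and 8 of 10 on VNP2 (5 up, 3 down). COL1A1 fell on VNP2 (log2 fold change -1.41) and on VN (-0.54), and ACTA2 likewise (-0.83 and -0.97), whereas LUM rose (0.31 and 0.58), as did DCN (0.34 and 0.53). The summed level of the list was 545 and 553 TPM on Matrigel, 599 to 636 TPM on VN and 523 to 557 TPM on VNP2, and none of its markers was at 0. Astrocyte markers summed to 205 and 215 TPM on Matrigel, 124 to 137 TPM on VN and 152 to 162 TPM on VNP2, nearly all of it GJA1 and SLC1A3, while GFAP and AQP4 stayed under 11 normalized counts. Of these 5, 3 were tested, of which GJA1 was called lower on VN, and on VNP2 GJA1 lower and SLC1A3 higher.

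Neuronal markers summed to 903 and 945 TPM on Matrigel, 1032 to 1075 TPM on VN and 1075 to 1091 TPM on VNP2, and 5 of 8 were called higher on VN and 5 of 8 on VNP2 against Matrigel. Of the OPC and ventral progenitor markers, 3 of 7 tested were called higher on VN and 7 of 7 on VNP2, with sums of 167 and 172 TPM on Matrigel, 214 to 227 TPM on VN and 221 to 232 TPM on VNP2. Neural crest markers summed to 7.62 to 11.3 TPM over all libraries, with TFAP2A called higher on VNP2 and SOX10 at 0 in both Matrigel libraries. Markers of the roof plate and choroid plexus, tissues rich in WNT ligands, summed to 2.30 to 2.91 TPM with none called by edgeR and none with an unadjusted p under 0.05 against Matrigel, and LMX1A and TTR were at or near 0. Pluripotency markers summed to 93.2 and 98.1 TPM on Matrigel, 83.8 to 86.0 TPM on VN and 77 to 80.7 TPM on VNP2, with 1 of 7 called on VN (LIN28A, lower) and 4 of 7 on VNP2 (3 lower, among them POU5F1, and 1 higher).

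Markers also differed between VNP2 and VN. Of the mesenchymal markers 3 of 10 were, with COL3A1 and PDGFRB higher on VNP2 and COL1A1 lower (log2 fold change -0.87), and of the neuronal markers 3 of 8, with STMN2 and DCX higher and MAP2 lower. Both GJA1 (log2 fold change 0.23) and SLC1A3 (0.45) were higher on VNP2 among the 3 tested astrocyte markers, as were NKX2-2 and NKX6-1 among the 7 tested OPC and ventral progenitor markers. Of the 7 pluripotency markers, POU5F1 (log2 fold change -1.56) and TDGF1 (-2.44) were lower on VNP2. None of the neural crest or of the roof plate and choroid plexus markers was called by edgeR. At an unadjusted p under 0.05 were 0 and 1 of them, beside 3600 of all 18201 tested genes.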

How the data were processed

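Poly(A) RNA of 8 libraries, prepared with a stranded kit and read in pairs, was analysed from the deposited per-transcript tables. Per the file headers and the study's methods, the authors trimmed reads with Trim Galore and quantified them with Salmon against GENCODE v32 transcripts (GRCh38), and deposited an estimated count and a TPM value per transcript without pooling libraries. The authors also deposited a gene table of normalized counts, a signal scaled per library by DESeq2 size factors, which served only as an alternative. Transcripts were assigned to genes through GENCODE v29: 205225 of 226608 matched, with 98.8 to 98.9% of the estimated counts, and summed counts of all 44 tested genes lay within 5% of the authors' table.

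Counts were rounded, filtered (filterByExpr, minimum count 10, minimum total 15), scaled by TMM with offsets for transcript length, and tested with edgeR 4.0.16 in R 4.3.3 by the quasi-likelihood method, in 1 fit over all 8 libraries with substrate as the only term. Adjusted p is Benjamini-Hochberg over all 18201 tested genes. Normalized counts are counts divided by the TMM- and length-corrected library factor. Groups followed the substrate given in the labels. No statement on strand use in counting was found in the sources used here. Depth was 37997896 to 39429453 estimated counts, and intervals cover the spread between libraries.

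Genes were named by a rule: every listed gene was accounted for, with values in each library for those called in any comparison, and for the second list up to 3 called rises and 3 called falls per comparison. LEF1, ZNRF3, NKD1, AXIN2, WNT5B, SOSTDC1, KREMEN1 and the markers were named beyond it. The listed genes, the second list and the marker lists were chosen with earlier results of these data known. Alternatives were RLE scaling, no length offsets, no filter on low counts, the replicate number as block, only the libraries of the pair, leaving out each library, DESeq2 1.42.0 and limma 3.58.1 on log2 of the deposited table plus 1. Promoter sequences came from RefSeq (GRCh38.p14).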

Additional observations from a re-analysis of the deposited data

How the results depend on the processing

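All 35 calls kept their direction under every alternative run, and 39 values of WNT genes changed sign in comparisons where the gene was not called. Of 1978 alternative values of the WNT genes 77 lost a call and 61 gained one. Of the 35 calls, 18 were kept under all alternatives, 5 for VN against Matrigel, 7 for VNP2 against Matrigel and 6 for VNP2 against VN. Asking for at least 1.5-fold left 664, 984 and 292 of all genes, 3, 5 and 1 of the WNT genes and 2, 7 and 3 of the other pathway genes in these comparisons. Leaving out 1 library gave 1188 to 3899, 1609 to 3608 and 547 to 1996 called genes, 5 to 14, 9 to 19 and 6 to 13 called WNT genes and 4 to 11, 10 to 17 and 6 to 8 called other pathway genes. The lowest counts against Matrigel came without one of its libraries, where the lone library is assumed to vary like the other groups, and the highest without VN replicate 1. The median log2 fold change of all genes stayed within 0.0101 of 0 under all alternatives.

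Deviations of same-numbered libraries correlated between -0.133 and 0.161, and those of differently numbered libraries between -0.199 and 0.207. Deviations from means of 2 or 3 libraries are tied to each other, so these values cannot show whether the numbers pair the libraries. The replicate block shows only what a shared number does. With the replicate block, 3389, 3170 and 1146 genes and 13, 16 and 13 WNT genes were called. It lost the WNT3 call on VN and the FRZB call on VNP2 against Matrigel. Matrigel with 2 libraries limits the precision of both comparisons that use it, and genes under about 50 counts had wide intervals.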
